A study of Fragaria x ananassa with 21 samples.

Results

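In strawberry receptacle, 28 assembled transcripts (unigenes) had at least 4 times the level of the day 5 water control on day 5 both after injection of abscisic acid (ABA) and after injection of nordihydroguaiaretic acid (NDGA), a compound that blocks ABA synthesis. They were chosen by size alone from 109953 unigenes in 67232 Trinity components, a component being the group of assembled sequences that the assembler treats as one locus. A unigene entered with a length of at least 500 nt, at least 5 RPKM (reads per kilobase of transcript, scaled to the total reads of the library) in a library, ratios of ABA5 over CK5 and of NDGA5 over CK5 of at least 4 after adding 0.1 RPKM, and a ratio of CK8 over NDGA8 under 3, and the unigene of highest mean RPKM stood for its component. The length and RPKM minima left 24043 unigenes in 13971 components, and the best expressed such unigene of each component serves as the background below. This background includes 21 of the 28 members.

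The receptacle is the fleshy tissue that carries the achenes and ripens into the edible strawberry. ABA is regarded as the main hormone that promotes ripening of this non-climacteric fruit, and NDGA inhibits the dioxygenases that cleave carotenoids into the ABA precursor as well as lipoxygenases, which form other signalling compounds. Added ABA and a block of its synthesis are opposite treatments, and the set holds transcripts that were higher with both.

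Octaploid Fragaria x ananassa 'Toyonoka' fruit were injected through the pedicel 2 weeks after anthesis (day 0) with 100 μL of ABA at 1 μM, NDGA at 100 μM or distilled water, so that control fruit carry the injection as well. ABA5 and ABA8 are receptacles 5 and 8 days after ABA, NDGA5 and NDGA8 the same days after NDGA, and CK0, CK5 and CK8 are water controls of days 0, 5 and 8. Collection fell on day 5, the day ABA fruit were at the initial red stage, and on day 8, the day control fruit were at that stage. Achenes were removed and the RNA of separately extracted fruit was pooled, which left 1 library per condition and assay, with no measure of the spread between fruit, so no test between conditions was made and intervals cover counting error only. The design text of the series gives day 5 for ABA8 and water for NDGA5. The sample labels give day 8 and NDGA, and they were followed here.

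The 7 transcriptome libraries held 53653395 (NDGA8) to 89152239 (ABA8) reads. None of the 28 unigenes carries a name: the sources used here name 625 of all unigenes and 245 of the 13971 background unigenes, and 0 of the 28 members or their components are among them. The members are therefore given by identifier, and those described singly were picked after their values were seen. The files name no achene or seed marker, so an admixture of seed tissue could not be measured. As a check of the tissue, 4 unigenes named chalcone synthase, the first enzyme of flavonoid synthesis, summed to 47.5 RPKM in ABA5 and 256.1 in ABA8, with 12.8 in NDGA5 and 51.5 in NDGA8, compared with 60.4 in CK0, 10.0 in CK5 and 195 in CK8. A pair of unigenes named anthocyanidin synthase, a later enzyme of the pathway, summed to 126 RPKM in ABA5 and 234 in ABA8, with 52.9 in NDGA5 and 115.6 in NDGA8, compared with 28.3 in CK0, 77.5 in CK5 and 51.5 in CK8. Both were highest in ABA8. They differed in direction in several other comparisons, among them CK8 against CK5, CK5 against CK0 and ABA5 against CK0. The same held for NDGA5 against CK5 and NDGA8 against CK8. In pooled tissue, a lower level in fewer cells and a lower level in each cell cannot be told apart.

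The only member with more than 2 reads at a listed cleavage site in the degradome, the sequenced ends of cleaved RNAs, was comp109644_c1_seq1, a unigene of 2278 nt. Its site at position 1834 was assigned to miR396, a conserved plant microRNA best known in Arabidopsis for guiding cleavage of growth-regulating factor mRNAs. The deposited category of the site was 2 in ABA5, ABA8, NDGA5 and CK5, and 3 in NDGA8. It was 4 in CK0 and CK8, where 1 read began at the site. Whether miR396 guided the cleavage or the ends came from general breakdown of the RNA was not tested. Which protein this unigene encodes is not given in the sources used here. Both mature forms assigned to the site are shown because they share a seed, bases 2 to 8, printed in capitals, and they align with positions 1823 to 1843 and 1824 to 1843 of the unigene with an alignment score of 3.5.
miR396 of 21 nt: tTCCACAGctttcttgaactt
miR396 of 20 nt: tTCCACAGctttcttgaact

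The unigene had 647 RPKM in ABA5 and 1154 in ABA8, with 316 in NDGA5 and 75.5 in NDGA8, compared with 11.5 in CK0, 45.4 in CK5 and 43.9 in CK8. Reads beginning at the site numbered 97 in ABA5 and 60 in ABA8, with 8 in NDGA5 and 2 in NDGA8, compared with 1 in CK0, 7 in CK5 and 1 in CK8. On the deposited TPB score, which scales reads by 1 factor per library, the site stood at 2594 (95% counting interval 2103 to 3164) in ABA5 and 2615 (1995 to 3366) in ABA8. It stood at 416 (180 to 820) in NDGA5, 145 (17.6 to 524) in NDGA8, 24.4 (0.618 to 136) in CK0, 382 (153 to 786) in CK5 and 43.1 (1.09 to 240) in CK8. The intervals of both ABA libraries lay above those of the other 5 libraries. The NDGA5 interval overlapped that of CK5, although the unigene itself was 6.96-fold higher in NDGA5 than in CK5.

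Per RPKM of the unigene, the site score was 4.01 (3.25 to 4.89) in ABA5 and 2.27 (1.73 to 2.92) in ABA8. It was 8.41 (3.38 to 17.3) in CK5, 0.982 (0.0249 to 5.47) in CK8, 2.12 (0.0538 to 11.8) in CK0 and 1.92 (0.233 to 6.95) in NDGA8. The intervals of CK0, CK8 and NDGA8 overlapped those of both ABA libraries. Set against the unigene, then, the site was not higher in ABA5 than in CK5 beyond counting error, and it was lower in ABA8 than in ABA5. In NDGA5 it was 1.32 (0.568 to 2.59) per RPKM, below CK5 with intervals that do not overlap. By reads among all listed sites of a library, the site ranked 15 of 373 in ABA5 and 14 of 241 in ABA8. It ranked 57 of 259 in NDGA5 and 86 of 212 in NDGA8, against 231 of 367 in CK0, 54 of 236 in CK5 and 154 of 286 in CK8.

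The forms of the small RNA differed from each other. The 21 nt form had 1345 normalized reads in ABA5 and 1393 in ABA8, with 1995 in NDGA5 and 2652 in NDGA8, compared with 2689 in CK0, 2410 in CK5 and 2927 in CK8, and both ABA libraries were the lowest of the 7. The 20 nt form had 440 normalized reads in ABA5 and 909 in ABA8, with 411 in NDGA5 and 402 in NDGA8, compared with 405 in CK0, 355 in CK5 and 435 in CK8, so its high library was ABA8, as for the unigene. One other member, comp82512_c0_seq1 of 823 nt, had a listed site at position 263 with 2 reads in ABA5 and 0 in the other 6 libraries, where the paired small RNA had 1 read in CK5 only.

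**Figure D1:**
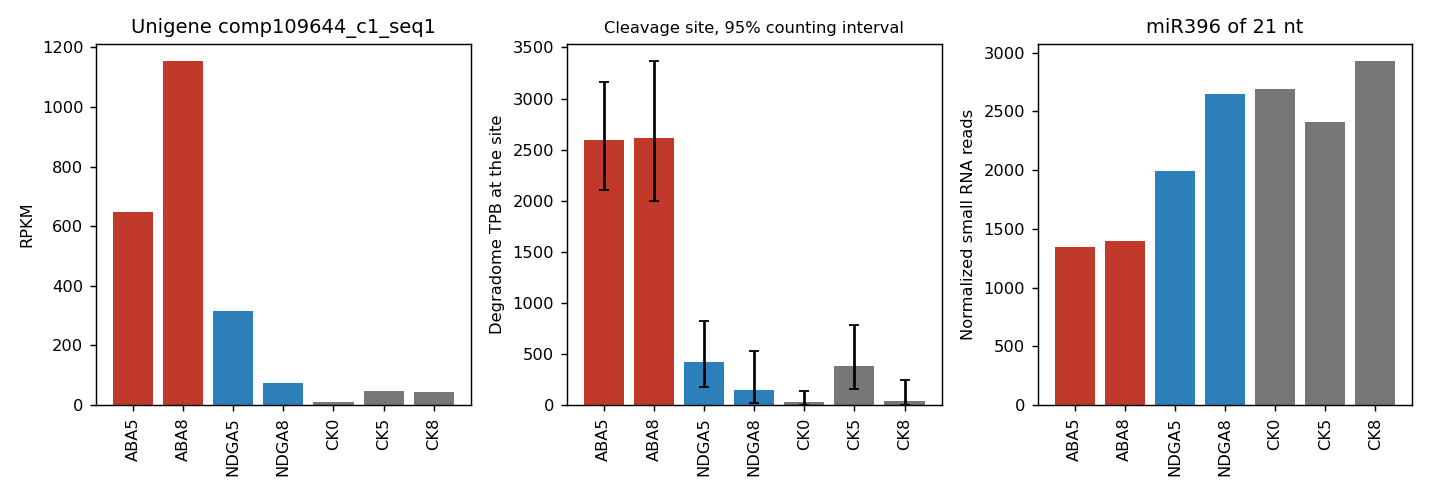
Bars show, for the 7 libraries, the RPKM of comp109644_c1_seq1 (left), the TPB score of its miR396 site with 95% counting intervals (middle) and the normalized reads of the 21 nt miR396 (right), with ABA libraries in red, NDGA in blue and water controls in grey. The unigene and its site are highest in the ABA libraries, at 647 and 1154 RPKM and at TPB scores of 2594 and 2615, where this form of the small RNA is lowest, at 1345 and 1393 normalized reads.

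The day 5 values that chose the set are a description only. Members had a median of 29.1 RPKM in ABA5 and 32.1 in ABA8, with 21.5 in NDGA5 and 2.33 in NDGA8, compared with 1.80 in CK0, 1.45 in CK5 and 4.53 in CK8. The ratio of ABA5 over CK5 ran from 4.39 to 168 with a median log2 of 3.58, and that of NDGA5 over CK5 from 4.01 to 471 with a median log2 of 2.71. In the background, 0.93% of unigenes were at least 4-fold higher in ABA5 than in CK5, 0.594% in NDGA5 than in CK5, and 0.186% in both. Both ratios share the single CK5 library. Before components were reduced to 1 unigene, 258 unigenes passed 4-fold with ABA and 144 with NDGA, and the 43 that passed both were 16.7% of the ABA list and 29.9% of the NDGA list. The limit on CK8 over NDGA8 removed 6 of these 43.

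At the threshold, the last members inside were comp109769_c1_seq11, with 5.02-fold in ABA5 and 4.01-fold in NDGA5, and comp119893_c0_seq10, with 12.8-fold and 4.07-fold. The nearest unigenes outside were comp105072_c1_seq6, with 6.83-fold in ABA5 and 3.996-fold in NDGA5, and comp102262_c0_seq3, with 35.1-fold and 3.95-fold. The last of these had 48.7 RPKM in ABA5 and 5.40 in NDGA5, against 1.29 in CK5. The set thus has no gap at its edge.

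Levels differed widely. Of the 28 members, 10 reached at least 100 RPKM in a library, 7 reached 10 to 100 RPKM and 11 stayed under 10 RPKM. The 28 together took 0.914% of all reads in ABA5 and 1.66% in ABA8, with 0.615% in NDGA5 and 0.238% in NDGA8, compared with 0.196% in CK0, 0.0758% in CK5 and 0.104% in CK8. The 7 best expressed members supplied 83.5 to 95.5% of these reads. Members were shorter than the background (median 911.5 against 1547 nt) and had a higher peak (median highest RPKM 44.3 against 14.6).

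**Figure D2:**
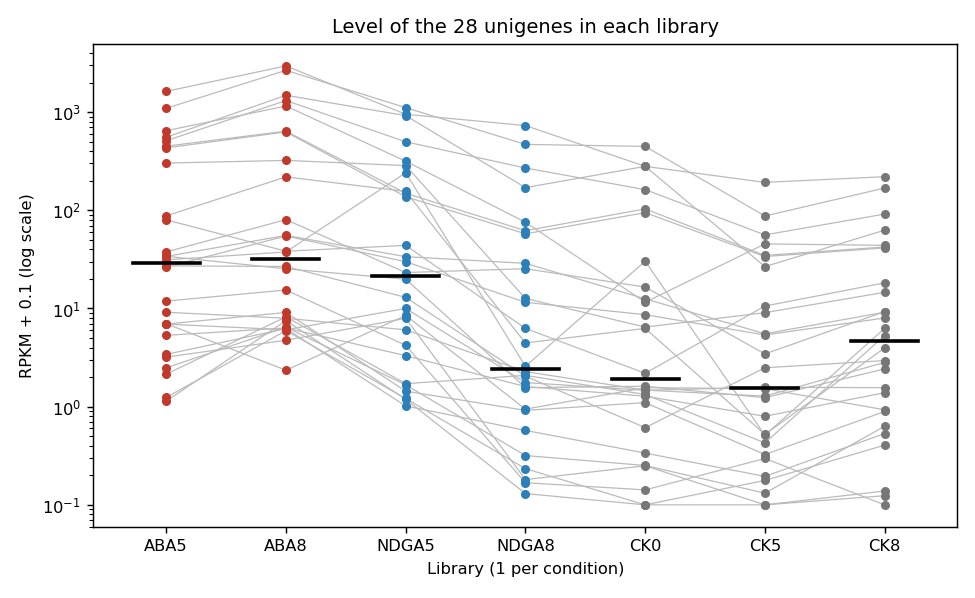
Each point is 1 of the 28 unigenes in 1 library, as RPKM + 0.1 on a log axis, grey lines join the same unigene and black bars are the medians. The medians of ABA5, ABA8 and NDGA5 lie between 21.5 and 32.1 RPKM, and those of NDGA8 and the 3 water controls between 1.45 and 4.53 RPKM.

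The best expressed members were high in both ABA libraries. The unigene comp102216_c0_seq6 had 1629 RPKM in ABA5 and 2956 in ABA8, with 951 in NDGA5 and 730 in NDGA8, compared with 280 in CK0, 192 in CK5 and 220 in CK8. All 4 treated libraries lay above all 3 controls. The next, comp101863_c0_seq2, had 1095 RPKM in ABA5 and 2666 in ABA8, with 1111 in NDGA5 and 469 in NDGA8, compared with 448 in CK0, 87.4 in CK5 and 169 in CK8, so NDGA8 was level with CK0. A similar order was seen in comp111402_c0_seq2, with 511 RPKM in ABA5 and 1312 in ABA8, with 499 in NDGA5 and 270 in NDGA8, compared with 162 in CK0, 56.1 in CK5 and 91.5 in CK8.

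In comp107291_c0_seq1 the day 0 control was high. It had 554 RPKM in ABA5 and 1486 in ABA8, with 921 in NDGA5 and 170 in NDGA8, compared with 280 in CK0, 26.6 in CK5 and 62.7 in CK8. CK0 lay above NDGA8 here. In comp116037_c0_seq22 the 3 high libraries were nearly level, at 303 RPKM in ABA5, at 322 in ABA8 and 285 in NDGA5, while NDGA8 had 12.6, against 6.36 in CK0, 8.97 in CK5 and 14.5 in CK8.

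Among the 10, comp119158_c0_seq3 and comp119893_c0_seq10 ran in proportion. The first had 450 RPKM in ABA5 and 640 in ABA8, with 149 in NDGA5 and 61.9 in NDGA8, compared with 103 in CK0, 34.6 in CK5 and 42.2 in CK8. The ratio of the first to the second stayed between 1.02 and 1.09 in all 7 libraries, and of the 378 pairs of members this was the only one whose ratio varied by less than 1.5-fold. Whether these are sequences of 1 locus is not given by the files, so they are no independent examples.

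**Figure D3:**
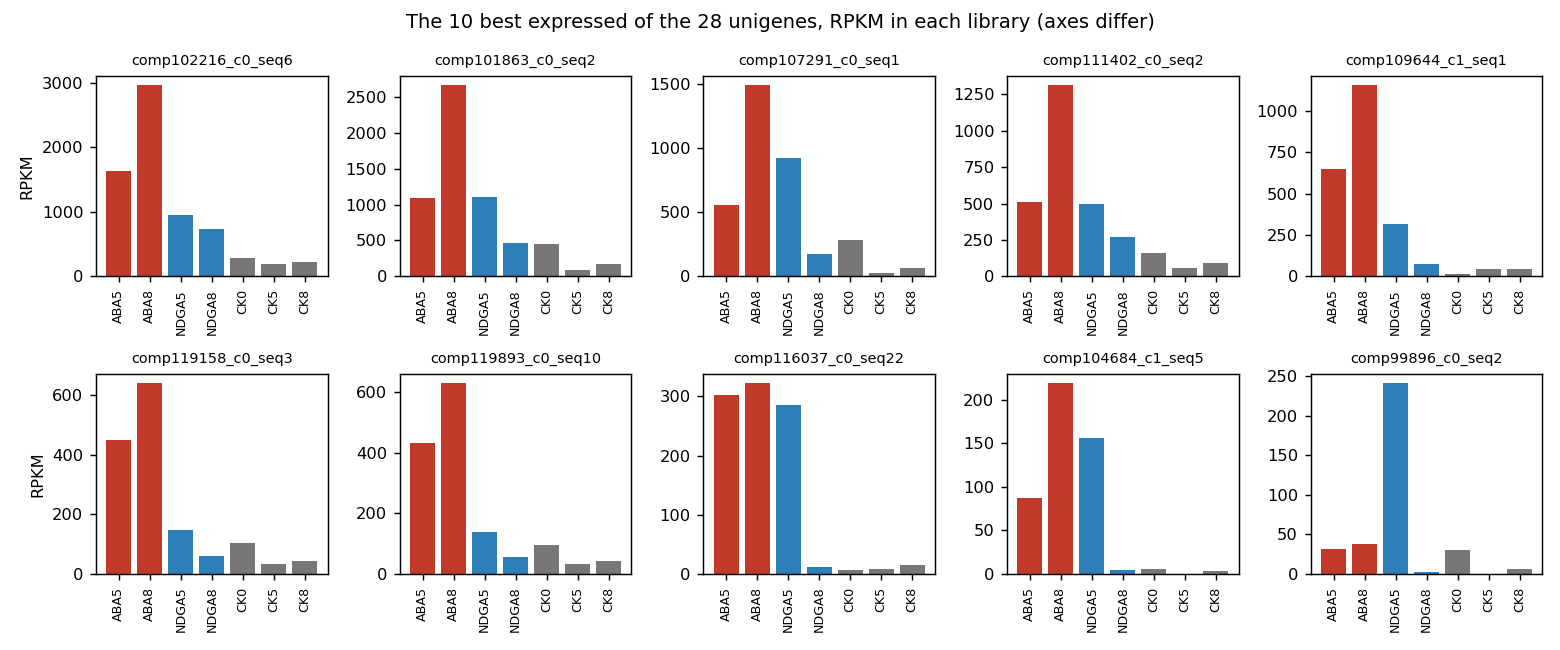
Bars give the RPKM of the 10 members that reached at least 100 RPKM, 1 panel each with its own axis from 0, in ABA (red), NDGA (blue) and water (grey) libraries. ABA8 is the highest library in 9 of the 10 panels, and NDGA5 in the panel of comp99896_c0_seq2.

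ABA8 and CK8 did not enter the day 5 ratios, but CK8 entered the rule through the limit on CK8 over NDGA8. That limit removed unigenes with a high CK8 relative to NDGA8, so this comparison is not fully independent of the choice. Of the 28 members, 23 were at least 4-fold higher in ABA8 than in CK8, against 2.28% of the background, and 0 were at least 4-fold lower (2.76%). All 28 were above CK8, against 34.7% of the background. The median log2 ratio was 3.47 for members and -0.22 for the background, or 3.69 for members once the libraries were rescaled for that shift. The unscaled median was again 3.47 with the 1 member that had 0 reads in CK8 placed at its lower bound. The minimum of 5 RPKM was met by 4 members in ABA8 alone, so these had to be high there, and of the other 24 members 19 were at least 4-fold higher with a median log2 of 3.37. ABA8 was the highest of the 7 libraries for 20 members, against 12.9% of the background, and for 16 of those 24.

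Among the best expressed members, comp109644_c1_seq1 stood 26.2-fold above CK8 in ABA8 (counting interval 25.7 to 26.9), comp107291_c0_seq1 23.7-fold (22.9 to 24.6) and comp104684_c1_seq5 55.3-fold (49.9 to 64.6). The smallest ratios were 1.55 (1.39 to 1.74) for comp109769_c1_seq11 and 2.10 (1.96 to 2.26) for comp106831_c1_seq3. Both of these had a higher CK8 than CK5: comp106831_c1_seq3 had 80.0 RPKM in ABA5 and 38.2 in ABA8, with 43.8 in NDGA5 and 6.17 in NDGA8, compared with 2.09 in CK0, 10.5 in CK5 and 18.2 in CK8.

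Between the ABA libraries, 22 members were higher in ABA8 than in ABA5 (34.3% of the background), with a median log2 ratio of 0.64 against -0.17 for the background, and 2 were at least 4-fold higher (0.616% of the background). These 2 were among the 4 members that met the RPKM minimum in ABA8 alone, and of the other 24 members 0 were at least 4-fold higher.

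With NDGA the day 8 values were unlike those of day 5. At day 8, 19 members were higher and 9 lower in NDGA8 than in CK8, with 64.0% of the background higher. Of the 28, 0 members were at least 4-fold higher in NDGA8 than in CK8 (0.437% of the background) and 0 were at least 4-fold lower (0.523%), although the rule itself capped how far CK8 could stand above NDGA8. Within 2-fold of CK8 lay 19 members, against 94.0% of the background, and the median log2 ratio was 0.17 against 0.13. Only 2 members were higher in NDGA8 than in NDGA5, against 61.1% of the background, and 15 of the 26 lower ones were at least 4-fold lower, against 0.465%. The median log2 ratio of NDGA8 over NDGA5 was -2.22. NDGA5 entered the rule as the high library, so this comparison is not independent of the choice.

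A group of 6 members kept a higher level in NDGA8, between 2.71- and 3.32-fold above CK8, and 4 of them had the highest mean RPKM of the set. They were comp102216_c0_seq6 (3.32-fold, counting interval 3.25 to 3.39), comp98797_c0_seq3 (3.15-fold, 2.81 to 3.58), comp111402_c0_seq2 (2.94-fold, 2.88 to 3.01), comp101863_c0_seq2 (2.78-fold, 2.72 to 2.85), comp93269_c0_seq1 (2.74-fold, 2.49 to 3.05) and comp107291_c0_seq1 (2.71-fold, 2.60 to 2.84). With all reads of their components summed, comp102216 was 2.14-fold and comp107291 2.61-fold above CK8 in NDGA8, and the other 4 components hold a single unigene. In the background, 3.62% of unigenes were at least 2-fold higher in NDGA8 than in CK8. Of this group, comp98797_c0_seq3 had 33.8 RPKM in ABA5 and 55.4 in ABA8, with 33.6 in NDGA5 and 28.7 in NDGA8, compared with 12.4 in CK0, 5.43 in CK5 and 9.07 in CK8, with all treated libraries above all controls. In comp93269_c0_seq1 there were 37.6 RPKM in ABA5 and 80.3 in ABA8, with 23.1 in NDGA5 and 25.3 in NDGA8, compared with 16.4 in CK0, 3.34 in CK5 and 9.19 in CK8.

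At the other end, the limit on CK8 over NDGA8 had removed the unigenes with the lowest NDGA8 relative to CK8. At least 2-fold lower in NDGA8 than in CK8 were 3 members, against 2.42% of the background. These were comp106831_c1_seq3, comp99896_c0_seq2 and comp109769_c1_seq11, with NDGA8 at 0.344, 0.411 and 0.393 of CK8. ABA8 against NDGA8, 2 libraries the day 5 ratios did not use, gave 21 members at least 4-fold higher in ABA8 (2.23% of the background) and a median log2 ratio of 3.34. Of the 24 members that met the RPKM minimum without ABA8, 17 were at least 4-fold higher, with a median of 2.87, and NDGA8 had entered the rule through the limit on CK8 over NDGA8.

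**Figure D4:**
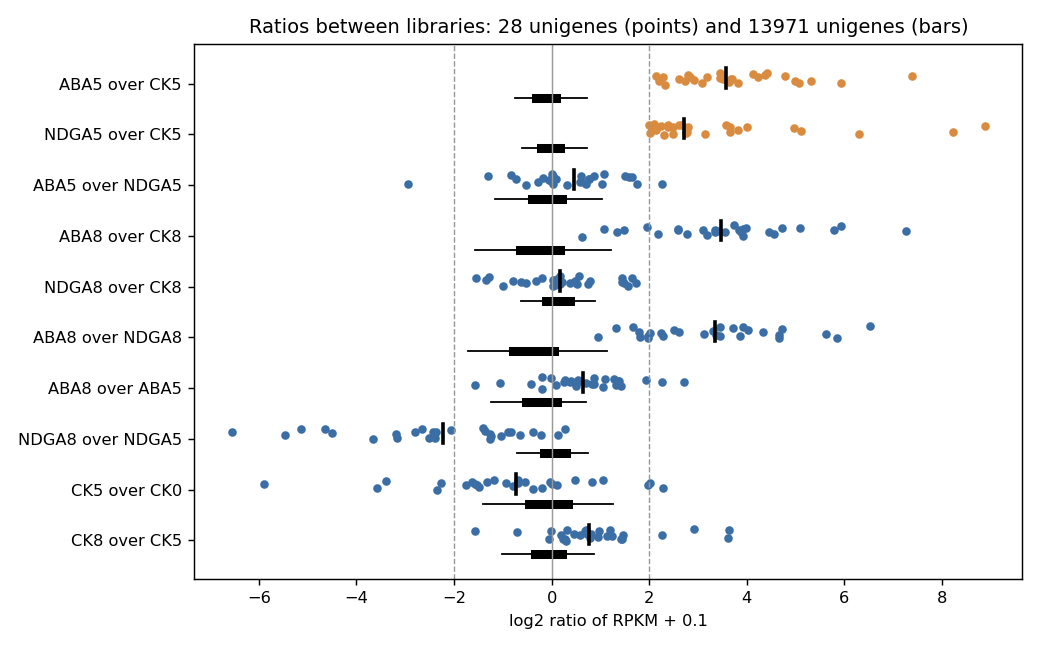
Points are the log2 ratios of the 28 unigenes in 10 comparisons of libraries, with a black tick at their median, and the bars under them give the middle 50% (thick) and 90% (thin) of the 13971 background unigenes. Dashed lines mark 4-fold. The 2 comparisons in orange chose the set, together with a limit on CK8 over NDGA8. Of the others, ABA8 over CK8 has a median of 3.47 and NDGA8 over CK8 a median of 0.17.

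On day 5 the 2 treatments did not give equal levels. ABA5 and NDGA5 were both chosen by the rule for being high, so the counts here are a description only. ABA5 was the higher in 19 members (42.6% of the background) and NDGA5 in 9, with a median log2 ratio of ABA5 over NDGA5 of 0.45. At least 4-fold higher in ABA5 was 1 member (3.57%, against 1.55% of the background), comp113622_c0_seq21 at 4.83-fold (3.77 to 7.05). This unigene held 6.45% of its component's reads. At least 4-fold lower was also 1 member (3.57%, against 1.35%), comp99896_c0_seq2. NDGA5 was the highest of all 7 libraries for 4 members, against 8.43% of the background. In comp99896_c0_seq2 there were 31.2 RPKM in ABA5 and 37.6 in ABA8, with 241 in NDGA5 and 2.48 in NDGA8, compared with 30.2 in CK0, 0.412 in CK5 and 6.17 in CK8. Both ABA libraries were thus level with the day 0 control, and NDGA5 stood alone. The other 3 with NDGA5 highest were low, such as comp78881_c0_seq2 with 3.10 RPKM in ABA5 and 4.65 in ABA8, with 7.83 in NDGA5 and 0.0808 in NDGA8, compared with 0.150 in CK0, 0 in CK5 and 0.0384 in CK8.

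A ratio over CK5 is large when the treated library is high or when CK5 is low. CK5 was the lowest of the 7 libraries in 19 members, against 3.74% of the background, a count the rule favours because CK5 was its denominator. CK5 was at least 2-fold below CK0 in 12 members (9.28% of the background), at least 2-fold below CK8 in 10 (3.97%), below both in 6 (1.75%) and below neither in 12. At 4-fold, 5 members were lower in CK5 than in CK0 and 2 were higher, against 2.28% and 2.06% of the background. The rule favours a low CK5 in each of these comparisons as well, for the same reason.

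The 6 with a low CK5 on both sides were comp107291_c0_seq1, comp104684_c1_seq5, comp99896_c0_seq2, comp93269_c0_seq1, comp109769_c1_seq11 and comp113622_c0_seq21. In comp104684_c1_seq5 there were 87.7 RPKM in ABA5 and 219 in ABA8, with 156 in NDGA5 and 4.36 in NDGA8, compared with 6.17 in CK0, 0.422 in CK5 and 3.86 in CK8, so the treated day 5 libraries were far above every control and not only above CK5. In comp109769_c1_seq11 the picture was different, with 2.05 RPKM in ABA5 and 8.11 in ABA8, with 1.62 in NDGA5 and 1.98 in NDGA8, compared with 1.23 in CK0, 0.327 in CK5 and 5.20 in CK8. Its ABA5 and NDGA5 lay below CK8.

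Measured against the other controls, 15 of the 28 were at least 4-fold above CK8 in both ABA5 and NDGA5 (0.429% of the background), and 14 were at least 4-fold above CK0 in both (1.0%). CK8 is the control of the same ripening stage as ABA5. Taken singly, 21 were at least 4-fold higher in ABA5 than in CK8 (1.92%) and 15 in NDGA5 than in CK8 (1.1%). Against the highest of the 3 controls, 16 members were at least 4-fold higher in ABA5 (0.515%), 11 in NDGA5 (0.115%) and 10 in both (0.0716%). These background shares stand for only 72, 16 and 10 unigenes, and 21 of the 28 members are part of the background. The counts of members use ABA5 and NDGA5, which the rule had chosen for being high. ABA8 was at least 4-fold above the highest control in 22 members (1.17%), or in 18 of the 24 that met the RPKM minimum without ABA8, and NDGA8 in 0 (0.0143%).

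In 26 of the 28 (2.63% of the background), ABA5 and NDGA5 were both above all 3 controls and NDGA8, with ABA5 and NDGA5 chosen by the rule for being high. The 2 exceptions were comp93269_c0_seq1, with NDGA8 above NDGA5, and comp109769_c1_seq11. For comp109769_c1_seq11 no treated library but ABA8 was above CK8.

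Some members of the middle group, at 10 to 100 RPKM, were low in every control. Others were not, such as comp106831_c1_seq3 with 10.5 RPKM in CK5 and 18.2 in CK8. In comp100889_c0_seq5 there were 33.9 RPKM in ABA5 and 25.2 in ABA8, with 19.8 in NDGA5 and 1.46 in NDGA8, compared with 1.51 in CK0, 1.13 in CK5 and 2.32 in CK8. In comp48803_c0_seq1 there were 27.1 RPKM in ABA5 and 26.7 in ABA8, with 12.9 in NDGA5 and 1.95 in NDGA8, compared with 0.512 in CK0, 2.39 in CK5 and 2.85 in CK8. ABA5 and ABA8 were close in both, and NDGA8 lay below CK8. In comp106040_c0_seq7 ABA8 was the highest library, and the unigene had 26.2 RPKM in ABA5 and 54.7 in ABA8, with 29.9 in NDGA5 and 11.5 in NDGA8, compared with 8.55 in CK0, 5.27 in CK5 and 7.90 in CK8.

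Of the 11 members under 10 RPKM, comp97669_c0_seq1 had the smallest ABA8 level. It had 6.90 RPKM in ABA5 and 2.25 in ABA8, with 8.40 in NDGA5 and 0.843 in NDGA8, compared with 1.46 in CK0, 1.42 in CK5 and 0.829 in CK8. A level near that of ABA5 was kept in ABA8 by comp104623_c0_seq16 (9.06 RPKM in ABA5, 7.85 in ABA8, 2.72 in CK8) and comp104489_c2_seq54 (5.23 in ABA5, 6.24 in ABA8, 1.29 in CK8). Their NDGA5 levels were 5.96 and 3.21 RPKM, against 1.18 and 0.698 RPKM in CK5.

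Several members were close to absent from the controls. The first of them, comp82512_c0_seq1, reached 15.3 RPKM in ABA8 and so belongs to the middle group. In comp82512_c0_seq1 there were 590 reads in ABA5 and 1125 in ABA8, with 267 in NDGA5 and 3 in NDGA8, compared with 2 in CK0, 10 in CK5 and 0 in CK8, and with 3 reads taken as the floor it was at least 285-fold higher in ABA8 than in CK8. In comp78881_c0_seq2 there were 217 reads in ABA5 and 478 in ABA8, with 712 in NDGA5 and 5 in NDGA8, compared with 10 in CK0, 0 in CK5 and 3 in CK8. Its ratio of ABA8 over CK8, from RPKM with nothing added, was 121 with a counting interval of 41.2 to 590 that rests on the 3 reads of CK8. On the same floor it was at least 73.5-fold higher in ABA5 and at least 186-fold higher in NDGA5 than in CK5.

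In comp78737_c0_seq1 there were 39 reads in ABA5 and 408 in ABA8, with 53 in NDGA5 and 1 in NDGA8, compared with 0 in CK0, 0 in CK5 and 1 in CK8. In comp85018_c0_seq1 there were 87 reads in ABA5 and 654 in ABA8, with 110 in NDGA5 and 9 in NDGA8, compared with 0 in CK0, 6 in CK5 and 26 in CK8. In these 4 members the 3 libraries ABA5, ABA8 and NDGA5 held nearly all reads, and NDGA8 was at the level of the controls.

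A unigene is 1 assembled form, and reads of a locus are divided among the forms of its component. For 11 members the component held a single unigene, and for 17 it held more. With all reads of a component summed, 18 of the 28 components were still at least 4-fold higher in both ABA5 and NDGA5 than in CK5, 7 of them with several unigenes. Of the other 10 components, 6 were short of 4-fold in NDGA5 only and 4 in both, and 4 were under 2-fold in at least 1 of the ratios. Among the 6 was the best expressed member, comp102216_c0_seq6, whose component was 5.28-fold in ABA5 and 3.23-fold in NDGA5 relative to CK5. The components held 62 other unigenes of at least 500 nt in all, of which 45 were higher in both treatments than in CK5 and 10 at least 4-fold higher in both.

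Some members were minor forms. In 8 members the unigene held under 25% of its component's reads. In comp119319_c1_seq1 it held 8.47%, and the component was 1.17-fold in ABA5 and 1.22-fold in NDGA5 relative to CK5. In comp116369_c0_seq5 it held 1.51%, and the component was 4.73-fold in ABA5 but 0.835-fold in NDGA5. Even the well expressed comp116037_c0_seq22 held 17.3%, and its component was 4.87-fold in ABA5 and 3.94-fold in NDGA5 relative to CK5, and 1.56-fold in ABA8 relative to CK8. For the 18 members whose component passed as a whole, 17 were at least 4-fold higher in ABA8 than in CK8, with a median log2 ratio of 3.90.

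**Figure D5:**
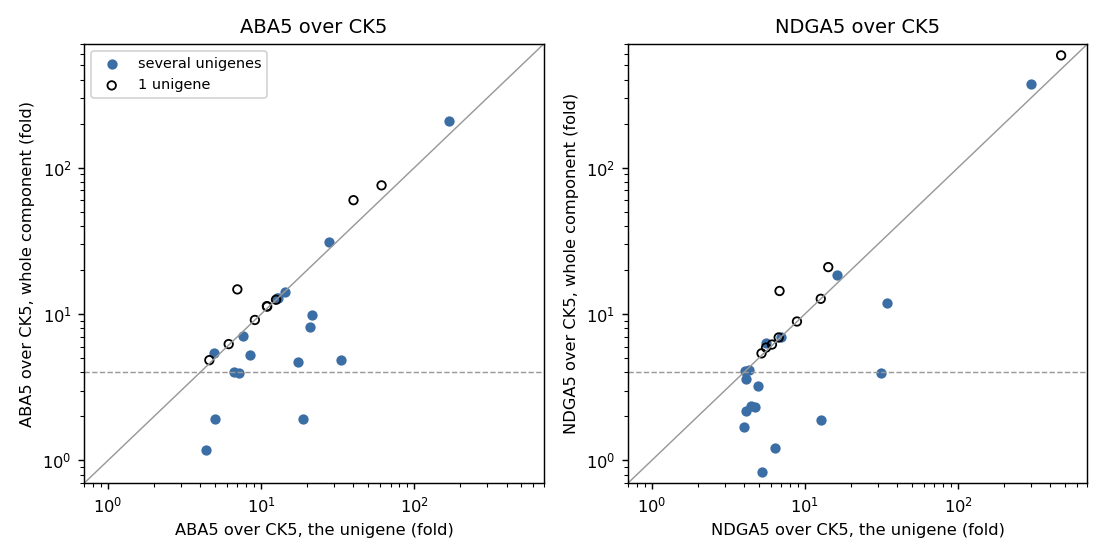
Each point sets the fold over CK5 of a member (x, with 0.1 RPKM added) against that of all reads of its component (y, nothing added), for ABA5 on the left and NDGA5 on the right, on log axes, with the line of equality and a dashed line at 4-fold. The 2 members with 0 reads in CK5 are not drawn, and the filled points under the dashed line belong to the 10 components short of 4-fold in at least 1 treatment.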

How the data were processed

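The RPKM values were deposited by the authors after quality filtering of 100 bp read pairs (NGS QC toolkit) and assembly by Trinity with TGICL. Tool versions and the read counter: not given in the sources used here. RPKM times length gave whole reads in 100% of values (tolerance 0.02 read, or 2e-05 of the value). Listed NA values were read as 0. The deposited chi-square p-value, FDR and significance columns were not used. The small RNA table deposited by the authors has an estimated count, which divides reads of several places, and a normalized score. The deposited degradome table holds a count of reads at each site and the TPB score, an abbreviation its header leaves unexplained.

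Ratios were taken on RPKM + 0.1, with 4-fold as the size rule, and exact Clopper-Pearson intervals at 95% were computed from reads without the added value. Members and lists were chosen with earlier results of these data known. The naming rule asked for annotated members and allowed 2 unannotated ones, so most identifiers printed were chosen after their values were seen. The word lists fixed for pathways and cell types held 0 members, an outcome fixed in advance because no member carries a name. The lists for jasmonate and wounding, ethylene, ABA, defence and achene or seed matched 0 of all named unigenes. Nothing about these pathways in the set can be read from the lists. The alternatives were other added values, minima, fold limits, a rescaling by the median ratio and whole components. The work used scipy 1.17.1, pandas 2.3.3, numpy 2.4.6 and Python 3.11.15, and the rule was tested on simulated data.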

Additional observations from a re-analysis of the deposited data

Results flagged for a closer look

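In 8 members NDGA8 lay below CK8 with a counting interval under 1, although NDGA5 lay above CK5 in every member, as the rule required. With or without such an interval, 9 of the 28 members were lower in NDGA8 than in CK8 and 19 higher, while 64.0% of the background was higher. The limit on CK8 over NDGA8 had removed 6 unigenes with a much lower NDGA8 from the choice of members. It was not applied to the background, so these shares cannot be compared directly. The difference between the days was not tested, since each condition had 1 library. The ratio of NDGA8 over CK8 was 0.344 in comp106831_c1_seq3 (6.17 RPKM in NDGA8, 18.2 in CK8), 0.393 in comp109769_c1_seq11 (1.98 in NDGA8, 5.20 in CK8) and 0.411 in comp99896_c0_seq2 (2.48 in NDGA8, 6.17 in CK8). It was 0.503 in comp98001_c0_seq8, 0.576 in comp85018_c0_seq1, 0.644 in comp100889_c0_seq5, 0.694 in comp48803_c0_seq1 and 0.867 in comp116037_c0_seq22. Of these 8, comp98001_c0_seq8 and comp85018_c0_seq1 rest on 12 and 9 reads in NDGA8, against 37 and 26 in CK8.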

How the results depend on the processing

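The number of members, 28, was 16 with 1 RPKM added, 97 without the RPKM minimum, 17 with a minimum of 10 RPKM and 16 with both ratios at least 6. The median log2 ratio of ABA8 over CK8, 3.47, was 3.65 with 0.01 RPKM added, 2.75 with 1 RPKM added, 3.69 after rescaling by the median ratio and 4.22 for the members at 6-fold. It was 3.90 for members whose component passed 4-fold when summed, an alternative added after seeing the data. For NDGA8 over CK8, 1 member was at least 4-fold higher with 0.01 RPKM added. At 2-fold, 6 members were higher and 3 lower. The median log2 ratio, 0.17, was 0.57 for the members at 6-fold and 0.50 for those of summed components. Over all log2 ratios and medians, 6 single-unigene ratios changed sign, all on rescaling and all within 0.04 of 0. No paired analysis was possible because each condition had 1 library, and for the same reason no library could be left out. Members under 10 RPKM rest on few control reads, as does comp82512_c0_seq1 of the middle group. A ratio over a control with 0 reads is a bound, not a fold. The spread between fruit was not measured.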

Other observations

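The limit on CK8 over NDGA8 left out 6 unigenes that passed both day 5 ratios, all in components without a member. With 0.1 RPKM added, CK8 was between 6.13 and 27.5 times NDGA8 in these. For comp112364_c0_seq1 NDGA8 had 0 RPKM, so its ratio depends on the added value. The best expressed was comp94345_c0_seq2, with 287 RPKM in ABA5 and 660 in ABA8, with 142 in NDGA5 and 3.71 in NDGA8, compared with 0.609 in CK0, 2.10 in CK5 and 40.2 in CK8. The next was comp100406_c0_seq2, with 212 RPKM in ABA5 and 492 in ABA8, with 106 in NDGA5 and 3.01 in NDGA8, compared with 0.638 in CK0, 1.59 in CK5 and 30.3 in CK8. In both, CK8 was well above CK0 and CK5.

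In the opposite direction, 33 unigenes in 26 components were at least 4-fold lower than CK5 in both ABA5 and NDGA5, next to 43 unigenes in 34 components at least 4-fold higher in both before the limit on CK8.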
